A study of Mus musculus with 10 samples.

Results

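The genes described are 61 members of the Wnt signalling pathway, measured by RNA sequencing of skin ulcers in diabetic mice. They were taken by symbol from a table of 55421 genes: every Wnt ligand (a number with or without a letter a or b), every Frizzled gene, Sfrp1 to Sfrp5, Dkk1 to Dkk4, Rspo1 to Rspo4, Lgr4 to Lgr6, and Lrp5, Lrp6, Lef1, Tcf7, Tcf7l1, Tcf7l2, Axin1, Axin2, Ctnnb1, Wif1, Notum, Nkd1, Nkd2, Sostdc1, Sost, Znrf3 and Rnf43. By role they comprised 19 Wnt ligands, 12 receptors, 12 secreted antagonists, 9 genes of the R-spondin axis, 5 genes of the beta-catenin relay and 4 TCF/LEF transcription factors. Ulcers were made by surgery in db/db mice, which carry a leptin receptor mutation in both groups and become obese and diabetic. Ulcer tissue was taken after 7 days of administration from 5 samples given saline and 5 given both saline and Fu Huang ointment (a preparation put on the wound), and the comparison asks which transcripts differed with the ointment. Whether the libraries of a group come from different animals is not stated, and the spread behind each p-value is that among libraries, which may in part be technical. The libraries held 47.8 to 62.9 M counts (M, mega). Age and sex of the mice, and how much of the wound edge was sampled, are not given in these sources.

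Wnt proteins are secreted lipid-modified signals that bind a Frizzled receptor together with the co-receptor Lrp5 or Lrp6. This stops the Axin-based destruction complex from degrading beta-catenin, the product of Ctnnb1, which then enters the nucleus and acts with TCF/LEF factors. R-spondins, bound by Lgr4, Lgr5 or Lgr6, hold off the ubiquitin ligases Znrf3 and Rnf43, which otherwise remove Frizzled from the cell surface, while Sfrp, Dkk, Wif1, Notum and Sostdc1 proteins restrain signalling outside the cell. In skin the pathway is known for starting and driving hair follicle growth. Axin2, Notum, Rnf43, Znrf3, Lgr5 and Lef1 are themselves reported targets of the pathway.

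Of the 61 genes, 52 passed the low-count filter and were tested. The other 9 did not pass it. Of these, 3 (Fzd2, Fzd7 and Fzd10) were listed at 272 to 3160 counts in some libraries and at 0 in most. With ointment, 6 of the 52 fell and 0 rose: the R-spondin gene Rspo2, its receptors Lgr6 and Lgr4, the antagonist Sostdc1, the transcription factor Lef1 and the ligand Wnt7b (edgeR quasi-likelihood F-test, adjusted p under 0.05 over all genes tested). That is 11.5% of the tested members, beside 1.67% of all 18509 genes tested in either direction and 0.983% that fell. At an unadjusted p under 0.05, 17 members were lower and 1 was higher, together 34.6% of the tested members, beside 17.1% of all genes in either direction. The lower ones made up 32.7% of the tested members and 8.56% of all genes. In 9 members (17.3%) every ointment library lay below every saline library, beside 3.44% of all genes, and in 0 members did every ointment library lie above, beside 3.11%. Altogether 39 members had a negative and 13 a positive log2 fold change, and their median was -0.27 beside 0.00 over all genes. DESeq2 gave an adjusted p to 58 members and called 12 lower (20.7%) and 0 higher. Of all genes it called 7.00% in either direction and 3.45% lower. The 12 include Fzd2 and Sost, which are not among the 52. Of the 52, limma voom called 7 lower (13.5%) and 0 higher, beside 1.93% of all genes in either direction and 1.11% lower.

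**Figure D1:**
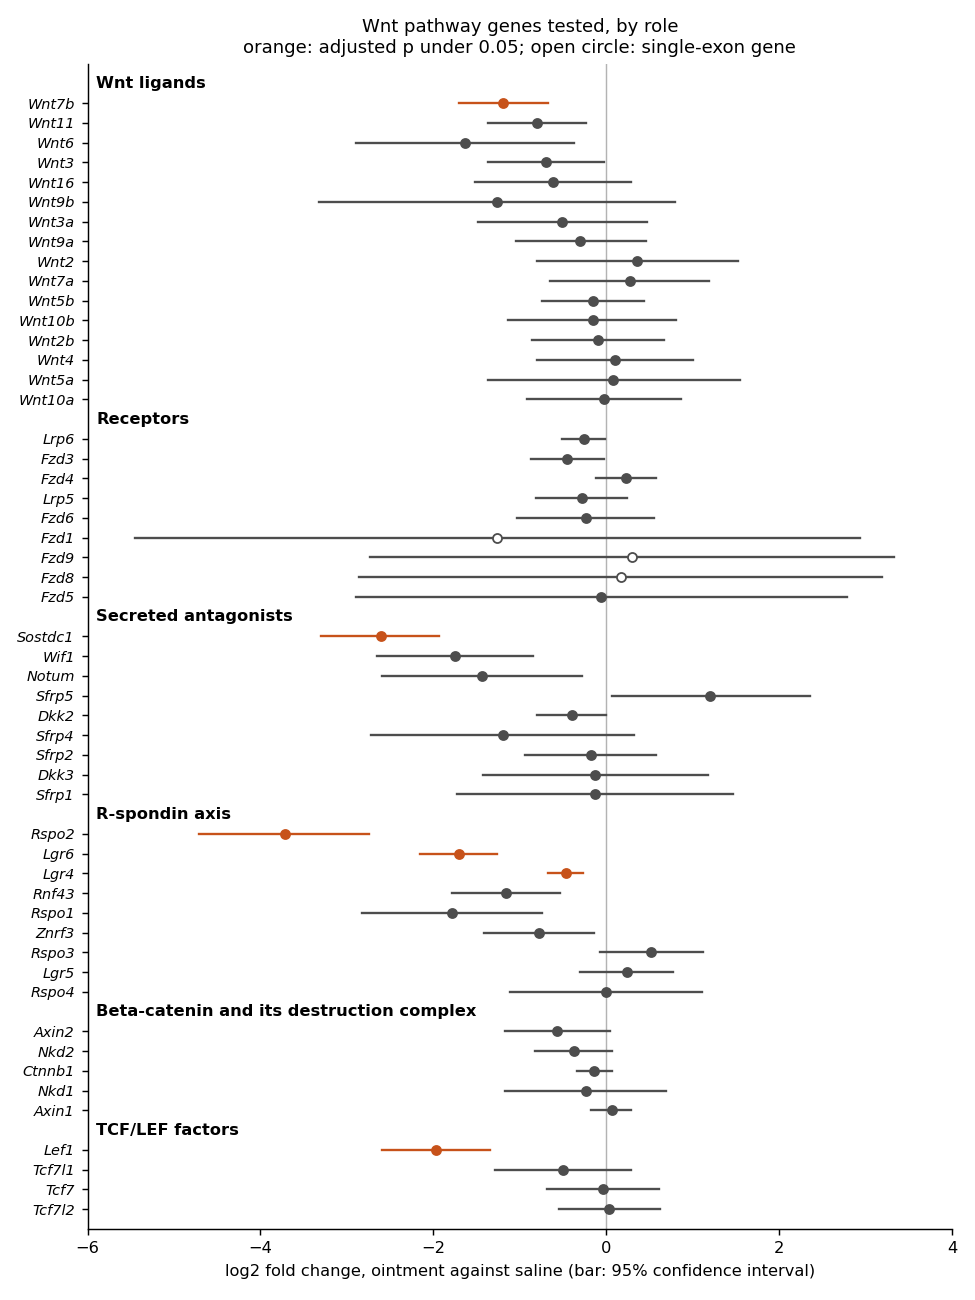
Log2 fold change of the 52 tested genes, ointment against saline, grouped by role and ordered by p within a role (point: edgeR estimate; bar: 95% confidence interval; orange: adjusted p under 0.05; open circle: gene with a single exon). The 6 orange genes lie between -0.47 (Lgr4) and -3.72 (Rspo2), and the intervals of the Frizzled genes Fzd1, Fzd5, Fzd8 and Fzd9 are the widest shown.

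The stretches upstream of 3 of the 6 genes that fell, and of the ligand gene Wnt11, which did not pass, show what the letters before the start look like. Where a gene had more than 1 window, the window with the most matches is shown. They are RefSeq windows on GRCm38.p6, which held 40 of the 61 members, and each runs 5′ to 3′ along the gene for the 250 bases before an annotated transcript start. Capitals mark a match, on either strand, to the letters that TCF/LEF factors are known to bind, searched as CTTTGAA, ending in T as CTTTGAT, with T before the last A as CTTTGTA, or with T in both places as CTTTGTT.
Lef1, chr3:131156044-131156293, plus strand, before a start inside the gene: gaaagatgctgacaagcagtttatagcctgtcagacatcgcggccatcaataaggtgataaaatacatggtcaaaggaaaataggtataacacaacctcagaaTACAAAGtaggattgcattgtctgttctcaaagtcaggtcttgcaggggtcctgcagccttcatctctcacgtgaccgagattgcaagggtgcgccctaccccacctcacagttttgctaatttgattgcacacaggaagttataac
Wnt11, chr7:98834862-98835111, plus strand: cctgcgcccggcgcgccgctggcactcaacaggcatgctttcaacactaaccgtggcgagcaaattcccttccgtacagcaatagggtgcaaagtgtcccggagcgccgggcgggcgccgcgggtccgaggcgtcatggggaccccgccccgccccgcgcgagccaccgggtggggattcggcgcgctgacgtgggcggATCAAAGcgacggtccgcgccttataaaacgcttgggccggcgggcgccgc
Lgr6, chr1:135105277-135105526, minus strand: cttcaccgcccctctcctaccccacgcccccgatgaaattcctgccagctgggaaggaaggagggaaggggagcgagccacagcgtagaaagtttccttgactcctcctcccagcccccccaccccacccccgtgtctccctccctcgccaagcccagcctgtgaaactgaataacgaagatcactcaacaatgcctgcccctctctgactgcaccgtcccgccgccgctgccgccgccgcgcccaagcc
Lgr4, chr2:109917397-109917646, plus strand: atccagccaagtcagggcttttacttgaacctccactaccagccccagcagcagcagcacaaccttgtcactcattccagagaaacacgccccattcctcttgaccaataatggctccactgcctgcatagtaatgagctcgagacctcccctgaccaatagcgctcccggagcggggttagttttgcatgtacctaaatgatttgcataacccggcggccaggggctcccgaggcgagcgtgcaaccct
The match in the Wnt11 window, 1 of 2 windows of Wnt11, begins 51 bases before the start. That in the Lef1 window, 1 of 4 windows of Lef1, begins 147 bases before. The other windows of both genes held no match, so the windows shown do not represent the members. Over the members, 6 of 50 windows (12%) held a match, in Lef1, Wnt11, Wnt5b, Dkk1, Tcf7l2 and Fzd7, beside 14.8% of all 32851 windows. A match in letters is not a measured binding site.

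Among the Wnt ligands, Wnt7b was the only one of 16 tested that passed, and it fell. Wnt7b, a ligand known from hair follicle and epidermis (chromosome 15, 85535437 to 85582473, minus strand, 4 exons), measured 18.9, 12.7, 16.1, 13.5 and 14.1 CPM (counts scaled to library size with TMM factors) in saline libraries 1 to 5. In ointment libraries 1 to 5 it measured 6.07, 6.69, 4.43, 10.2 and 5.53 CPM. The highest ointment library, number 4, stayed below the lowest saline library. The mean went from 15 ± 2.49 to 6.57 ± 2.17 CPM (SD, n = 5), a log2 fold change of -1.19 (SE 0.23; edgeR adjusted p = 0.0343). Wnt7b is, with Lgr4, among the less settled of the calls. It passed in only 1 of the 10 fits that each left out 1 library, the fit without ointment library 4 (adjusted p up to 0.084 in the others). Reads of the overlapping antisense gene AU022754 cannot be told apart from those of Wnt7b without strand, but that gene was given only 0 to 15 counts in any library.

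Wnt11, Wnt6 and Wnt3 had an unadjusted p under 0.05 and did not pass after adjustment. Wnt11, a ligand best known for beta-catenin-independent signalling, had a log2 fold change of -0.80 (SE 0.26; edgeR adjusted p = 0.143), with 5.72 ± 1.2 CPM in saline and 3.28 ± 0.897 in ointment. Its groups overlapped only through saline library 5 at 3.96 CPM, which lay below ointment library 1 at 4.18. Wnt6 gave -1.63 (adjusted p = 0.175) from low levels of 0.531 to 2.60 CPM in saline and 0.198 to 1.09 in ointment, and Wnt3 gave -0.70 (adjusted p = 0.267). The remaining 12 tested ligands lay between -1.26 (Wnt9b, at most 0.331 CPM) and 0.36 (Wnt2). The ligands highest per exon length were Wnt4 and Wnt9a, with 6.08 and 5.31 CPM per kb in saline and 6.53 and 4.32 in ointment. Neither differed past the test: Wnt4 had a log2 fold change of 0.10 (95% confidence interval -0.80 to 1.0) and Wnt9a of -0.30 (-1.05 to 0.46). Wnt5a, another beta-catenin-independent ligand and a wound gene, varied within both groups, from 4.76 to 46.0 CPM in saline and from 5.13 to 57.4 in ointment, so that a fold change of 0.08 came with an interval of -1.37 to 1.54. Wnt10a and Wnt10b, ligands of follicle and epidermis, had -0.03 (-0.92 to 0.86) and -0.16 (-1.14 to 0.81). Wnt1, Wnt8a and Wnt8b were not tested: their deposited counts were 0 to 17, 0 to 21 and 0 to 7 per library.

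**Figure D2:**
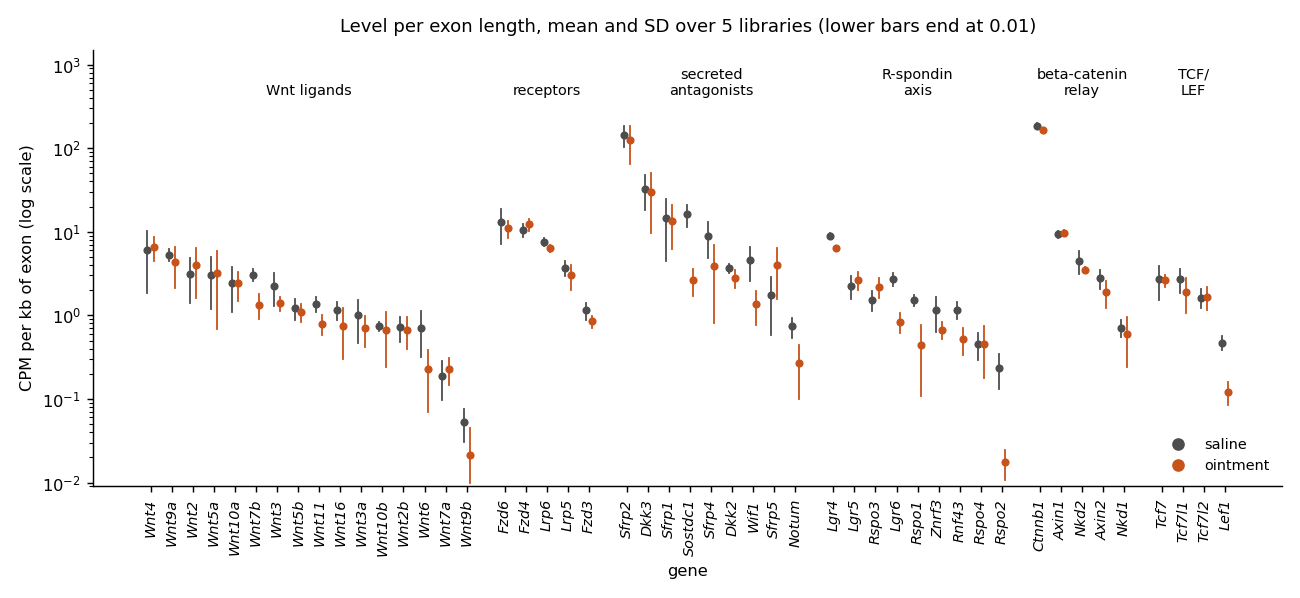
Level per kb of exon of the tested members with at least 2 exons, except Fzd5, on a log axis, by role and in order of the mean level over all 10 libraries within each role (point: mean of 5 libraries; bar: SD; lower bars end at 0.01). Ctnnb1 and Sfrp2 stand highest, at 184 and 143 CPM per kb in saline, and Rspo2 shows the widest gap between the groups, 0.237 against 0.0176 CPM per kb.

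Among the receptors, 0 of 9 tested genes passed in edgeR, 2 had an unadjusted p under 0.05, and limma voom called 0. DESeq2 called 1, Fzd2, which did not pass the low-count filter and is not among these 9. Lrp6, the main Wnt co-receptor, measured 104 ± 11.6 CPM in saline and 86.2 ± 8.53 in ointment (log2 fold change -0.26, SE 0.11; edgeR adjusted p = 0.25), and its relative Lrp5 gave -0.28 (adjusted p = 0.616). Fzd3, a Frizzled known from planar cell polarity, gave -0.45 (SE 0.19; adjusted p = 0.255). Fzd6 and Fzd4 were the highest Frizzled genes per exon length among those with 2 or more exons, at 13.0 and 10.5 CPM per kb in saline and 11 and 12.3 in ointment. Their log2 fold changes were -0.24 (95% confidence interval -1.03 to 0.55) and 0.23 (-0.12 to 0.57). These 5 receptors carried non-zero counts in all 10 libraries, so their intervals bound the differences that these data allow.

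The other Frizzled genes could not be read this way, because the deposited values of genes with 1 exon switched to exact 0 in some libraries. Fzd1, Fzd2, Fzd7, Fzd8, Fzd9 and Fzd10 have 1 exon, and all 6 were listed at 0 in at least 1 library. Fzd2 was listed at 0, 0, 3003, 0 and 3160 counts in saline libraries 1 to 5 and at 0 in every ointment library. Fzd7 was listed at 0, 0, 2462, 0 and 2382 counts in saline and at 0, 1297, 0, 0 and 0 in ointment. Fzd1 was listed at 7740, 8515, 5707, 7410 and 1005 counts in saline and at 8742, 0, 0, 1098 and 0 in ointment. Fzd8, Fzd9 and Fzd10 were listed at up to 574, 104 and 586 counts. The saline zeros of Fzd2 and Fzd7 sat beside 2382 to 3160 counts in the other saline libraries. Over protein-coding genes whose highest count reached 200, 194 of 237 genes with 1 exon (81.9%) had a library at 0, against 144 of 13329 genes with 2 or more exons (1.08%). Zeros were not confined to genes with 1 exon: the share was 12.6% (71 of 565) with 2 exons, 2.43% with 3 and 0.451% with 4 or more. Junb, a widely used single-exon gene, was likewise listed at 0 in ointment library 3 and at 6262 to 35334 in the others. No mean or fold change of these 6 genes is therefore read as a difference between the groups, and the DESeq2 call of Fzd2 rests on such values. Fzd1, Fzd8 and Fzd9 were tested and stay in the counts of signs and the median over the members. Fzd5, with 2 exons, was listed at 866, 986, 777, 4 and 8 counts in saline and at 11, 553, 531, 714 and 490 in ointment, so that both groups held high and low libraries. Leaving all single-exon genes out of the fit left 6 members called.

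**Figure D3:**
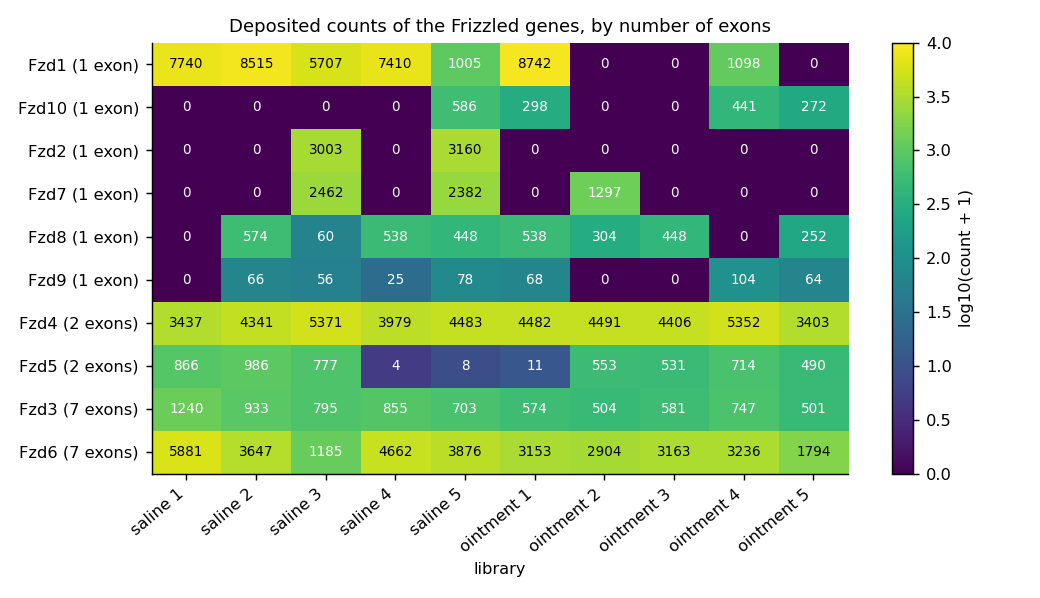
Deposited counts of the 10 Frizzled genes in each library (columns) with the number of exons of each gene (rows); colour is log10 of the count plus 1. Genes with 1 exon switch between 0 and up to 8742 counts within a group, while Fzd3, Fzd4 and Fzd6 are above 0 in all 10 libraries.

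Among the secreted antagonists, 1 of 9 tested genes passed: Sostdc1, which blocks both Wnt and BMP signalling and is known for spacing hair follicles and teeth, fell 6.11-fold. Sostdc1 (chromosome 12, 36314139 to 36318452, plus strand, 2 exons) measured 38.7, 21.2, 37.3, 26.2 and 21.3 CPM in saline libraries 1 to 5 and 4.92, 7.25, 4.10, 4.94 and 2.46 CPM in ointment libraries 1 to 5. The lowest saline library was above the highest ointment library by a wide gap. No library was listed at 0 for this gene of 2 exons, and its lowest deposited count was 130, in ointment library 5. The log2 fold change was -2.61 (SE 0.31; edgeR adjusted p = 0.00627), and it passed whichever library was left out (adjusted p up to 0.0269). Per exon length Sostdc1 went from 16.3 to 2.66 CPM per kb, from the third highest antagonist in saline to a level below Sfrp4, Sfrp5 and Dkk2 in ointment.

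Wif1, Notum and Dkk2 were lower and Sfrp5 higher at an unadjusted p under 0.05, without passing after adjustment. Wif1, which binds Wnt ligands, measured 15, 15, 14.2, 6.47 and 5.22 CPM in saline and 2.64, 1.91, 2.38, 4.41 and 5.26 CPM in ointment, a log2 fold change of -1.75 (SE 0.41; edgeR adjusted p = 0.0639). Saline library 5 was the only one to overlap, by a small margin, and without it Wif1 passed (adjusted p = 0.0473). Notum, a lipase that strips the lipid from Wnt proteins, had groups that did not overlap (1.22 to 2.50 CPM in saline, 0.107 to 1.13 in ointment) and a log2 fold change of -1.44 (adjusted p = 0.189). Sfrp5, a decoy that binds Wnt ligands, was the only member higher at that level: 3.31 ± 2.18 CPM in saline and 7.64 ± 4.63 in ointment, a log2 fold change of 1.2 (SE 0.52; adjusted p = 0.267). Dkk2, which binds Lrp co-receptors, gave -0.40 (adjusted p = 0.284).

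Sfrp2 was the most abundant antagonist, at 143 CPM per kb in saline and 126 in ointment, followed by Dkk3 at 32.9 and 30.0. Sfrp2, a fibroblast product, ranged from 197 to 424 CPM in saline and from 136 to 417 in ointment, and its log2 fold change was -0.18 (95% confidence interval -0.94 to 0.57). Dkk3 and Sfrp1 both gave -0.13, with intervals of -1.43 to 1.17 and -1.73 to 1.46, and Sfrp4 gave -1.20 (-2.72 to 0.32). The sign of Dkk3 and Sfrp1 depended on the libraries used. Within ointment, library 5 had the lowest value of Sfrp1, Sfrp2, Sfrp4 and Dkk3 alike (6.02, 136, 1.67 and 18.3 CPM), and it also had the lowest summed level of 14 fibroblast markers, 20193 CPM against 26201 to 63753 in the other ointment libraries. The part of fibroblast content in these values was not tested. Dkk1, Dkk4 and Sost were not tested. Sost, a bone antagonist related to Sostdc1, was listed at 25, 14, 21, 8 and 0 counts in saline and at 0, 0, 0, 2 and 0 in ointment. Dkk1 was at 22, 4, 10, 0 and 0 in saline and at 0, 0, 0, 9 and 0 in ointment, and Dkk4 had 3 counts in saline library 4 alone.

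The R-spondin axis held 3 of the 6 genes that fell, Rspo2, Lgr6 and Lgr4, out of 9 tested, and the groups did not overlap in 5 of the 9. Over all genes 0.983% fell and 3.44% had every ointment library below every saline library. Rspo2, an R-spondin known from the dermal papilla of the growing hair (chromosome 15, 43020794 to 43170826, minus strand, 6 exons), fell furthest. It measured 1.73, 0.740, 1.79, 1.15 and 0.644 CPM in saline and 0.0852, 0.0747, 0.0661, 0.0717 and 0.151 CPM in ointment. These are 104, 46, 108, 73 and 39 deposited counts against 4, 4, 4, 4 and 8, so the ointment level rests on 24 counts in all. The log2 fold change was -3.72 (95% confidence interval -4.71 to -2.74; edgeR adjusted p = 0.00627), or 13.2-fold, and it passed whichever library was left out (adjusted p up to 0.0269). All ointment counts lay under the filter's minimum of 10, so Rspo2 entered the test through the saline libraries alone. The fits without 1 library share that entry and are no separate support for the call. Rspo2 dropped below the low-count filter when all deposited values were divided by 4, a setting tried because multiples of 4 were over-represented among them.

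**Figure D4:**
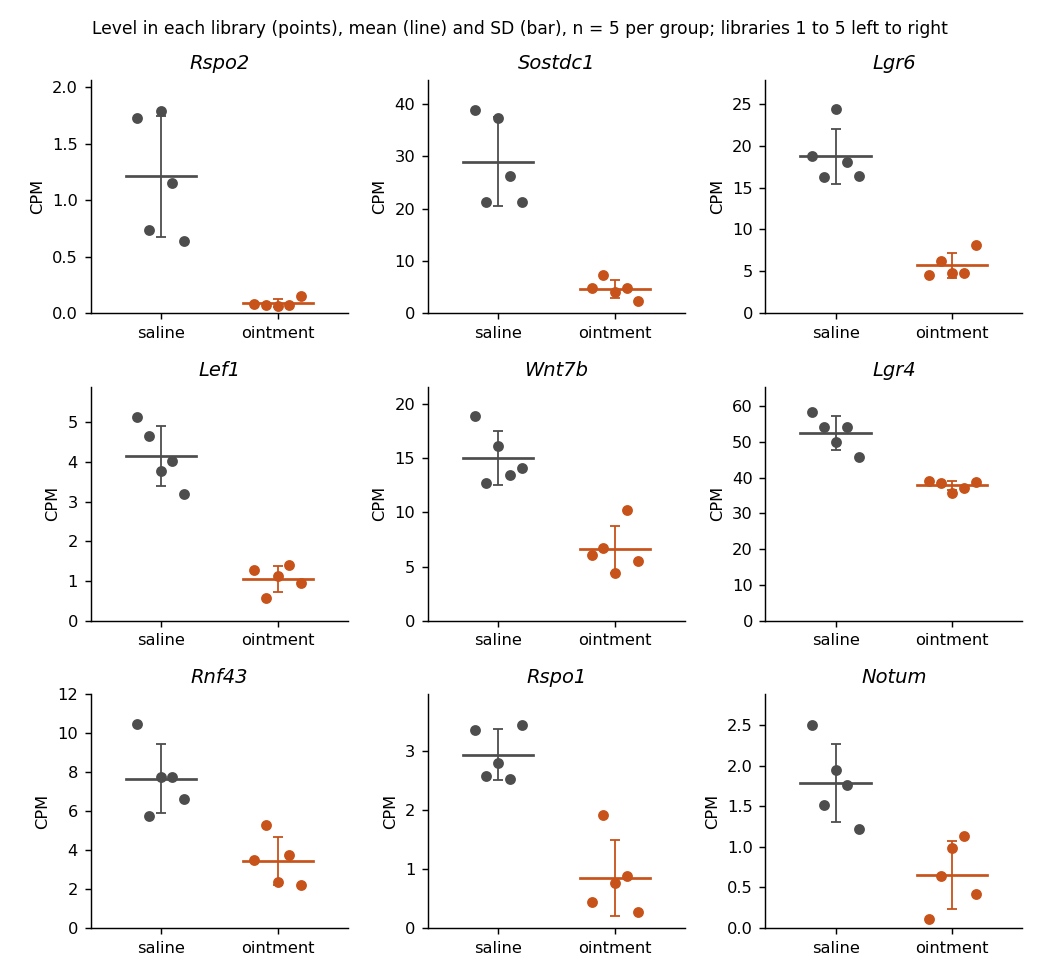
TMM-normalized CPM in each library (points, libraries 1 to 5 from left to right) with the mean (line) and SD (bar) of 5 saline and 5 ointment libraries, for the 9 members whose groups did not overlap. In each panel all 5 ointment points lie below all 5 saline points; the ratio between the group means is largest in Rspo2 (1.21 against 0.0898 CPM) and smallest in Lgr4 (52.5 against 37.8 CPM).

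Rspo1 followed the same order without passing, while Rspo3 and Rspo4 did not. Rspo1 measured 2.95 ± 0.433 CPM in saline and 0.855 ± 0.646 in ointment (log2 fold change -1.78, SE 0.47; edgeR adjusted p = 0.0895), with no overlap, and it passed without ointment library 2, the highest of its group at 1.92 CPM (adjusted p = 0.036). Rspo3, an R-spondin known from blood vessels, gave 0.52 (95% confidence interval -0.07 to 1.12; adjusted p = 0.363) and Rspo4, known from nail growth, gave 0.00 (-1.11 to 1.11). Per exon length, Rspo3 and Rspo1 were alike in saline at 1.54 and 1.52 CPM per kb, whereas ointment libraries held 2.21 of Rspo3 and 0.441 of Rspo1.

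Of the 3 R-spondin receptors, Lgr6 and Lgr4 fell and Lgr5 did not pass. Lgr6, which marks stem cells of the upper hair follicle (chromosome 1, 134983301 to 135105276, minus strand), measured 18.7, 16.3, 24.3, 18.0 and 16.4 CPM in saline and 4.58, 6.24, 4.79, 4.84 and 8.18 CPM in ointment. All ointment values lay below all saline values, a log2 fold change of -1.71 (SE 0.20; edgeR adjusted p = 0.00643), and the call held whichever library was left out. Lgr4, the most broadly expressed of these receptors (chromosome 2, 109917647 to 110014257, plus strand), measured 58.3, 54.1, 49.9, 54.3 and 45.7 CPM in saline and 39.0, 38.6, 35.8, 37.1 and 38.7 CPM in ointment. This was a small change, -0.47 (SE 0.09; edgeR adjusted p = 0.0349), that passed because the libraries varied little. Of 10 fits without 1 library, only that without saline library 5 kept Lgr4 past the threshold (adjusted p up to 0.0918 in the others), and it was not called without a low-count filter (adjusted p = 0.0792). Lgr5, which marks cycling stem cells of the lower follicle, measured 33.9, 22.3, 22.3, 24.2 and 13.9 CPM in saline and 36.4, 24.5, 31.3, 25.8 and 19.1 CPM in ointment. Its groups overlapped, with a log2 fold change of 0.24 (95% confidence interval -0.30 to 0.77; adjusted p = 0.705). Per exon length the order in saline was Lgr4, Lgr6 and Lgr5 at 8.91, 2.74 and 2.27 CPM per kb, and in ointment Lgr4, Lgr5 and Lgr6 at 6.43, 2.67 and 0.836.

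The ubiquitin ligases on which R-spondins act were lower too, without passing. Rnf43 measured 7.67 ± 1.79 CPM in saline and 3.43 ± 1.24 in ointment with no overlap (log2 fold change -1.16, SE 0.28; edgeR adjusted p = 0.0701), and passed without ointment library 2 (adjusted p = 0.0497). Znrf3 gave -0.78 (SE 0.29; adjusted p = 0.20), with saline library 1 at 16.2 CPM far above the 6.30 to 7.93 of the other saline libraries.

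Differences between related genes were compared as log2 ratios of counts within each library, which do not depend on scaling between libraries. The 15 pairs were chosen after the values were seen, and each was compared by a two-sided exact permutation test over 252 assignments, with p-values adjusted over the 15 pairs. In 10 pairs the adjusted p was under 0.05. The log2 ratio of Lgr5 to Lgr6 was 0.27 ± 0.45 in saline and 2.26 ± 0.69 in ointment (exact permutation p = 0.00794, the smallest this design allows; adjusted p = 0.0149). That of Lgr4 to Lgr6 was 1.49 ± 0.27 and 2.75 ± 0.33 (exact permutation, adjusted p = 0.0149), and that of Lgr4 to Lgr5 was 1.22 ± 0.33 and 0.50 ± 0.37 (adjusted p = 0.0265). Every pair with Lgr6, Lgr4, Rspo2 or Lef1 holds a gene already called, and its ratio is no independent support for that call. Rspo1 did not pass in edgeR, and its groups were already seen not to overlap when the pairs were chosen. Its ratios are therefore no separate test of Rspo1 either. The ratio of Rspo2 to Rspo3 fell by 3.74 on the log2 scale and that of Rspo1 to Rspo3 by 2.54 (exact permutation, adjusted p = 0.0149 for each), and both also fell against Rspo4, by 3.03 and 1.83. The ratios of Rspo1 to Rspo2 and of Rspo3 to Rspo4 differed by 1.2 and 0.72, within the spread of the libraries (exact permutation, adjusted p = 0.139 and 0.247).

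**Figure D5:**
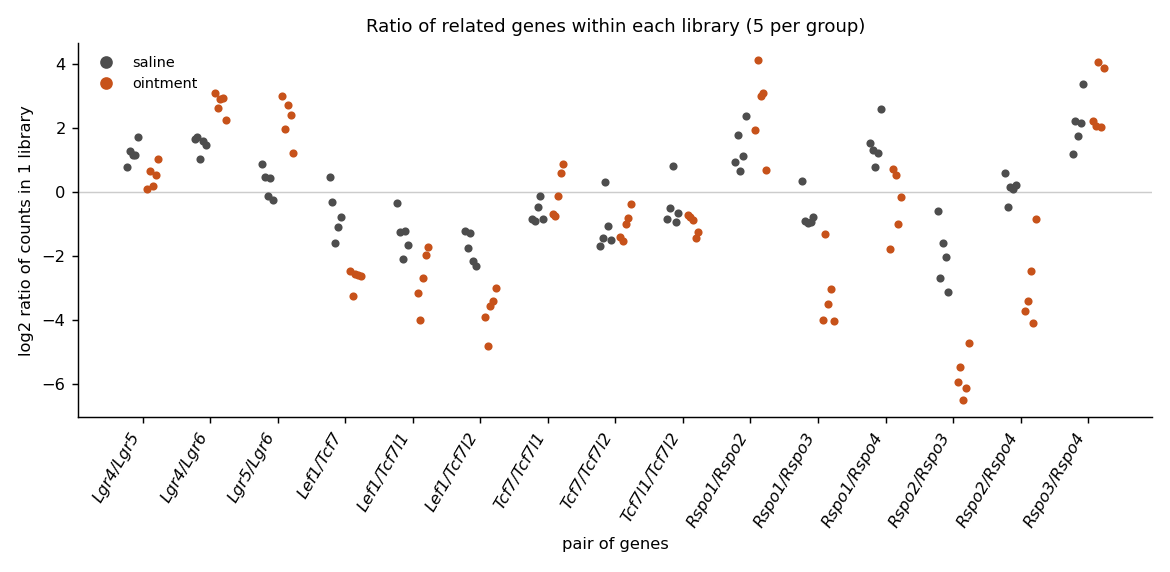
Log2 ratio of the counts of related genes within each library, for 15 pairs of Lgr, TCF/LEF and R-spondin genes (1 point per library, 5 per group; a count of 2 was added to each gene). The groups are fully apart in the pairs of Lgr6 with Lgr4 and Lgr5, of Lef1 with Tcf7 and Tcf7l2, and of Rspo1 and Rspo2 with Rspo3 and Rspo4, and they overlap in Lgr4/Lgr5, Lef1/Tcf7l1, Rspo1/Rspo2, Rspo3/Rspo4 and all pairs among Tcf7, Tcf7l1 and Tcf7l2.

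In the beta-catenin relay 0 of 5 genes passed in edgeR, with 0 at an unadjusted p under 0.05 and 0 called by DESeq2 or limma voom. Ctnnb1 was the highest member per exon length, at 184 CPM per kb in saline and 167 in ointment, and its log2 fold change of -0.14 had a narrow interval of -0.34 to 0.06. Axin1, the scaffold of the destruction complex, was as tightly bounded at 0.06 (-0.18 to 0.29). Axin2, whose transcript is widely used as a readout of beta-catenin signalling, measured 21.4, 11.9, 16.3, 15.5 and 12.1 CPM in saline and 13.7, 9.47, 8.44, 14.7 and 5.83 CPM in ointment. Its groups overlapped through ointment libraries 1 and 4, and its log2 fold change of -0.57 (SE 0.27; 95% confidence interval -1.17 to 0.04) did not pass (edgeR adjusted p = 0.331). The Naked genes, inhibitors that bind Dishevelled, gave -0.37 (Nkd2, adjusted p = 0.385) and -0.24 (Nkd1, adjusted p = 0.85).

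Of the TCF/LEF factors, Lef1 fell and the other 3 did not pass. Lef1, a factor of the hair matrix and of growing follicles (chromosome 3, 131110471 to 131224356, plus strand), measured 5.13, 4.66, 3.77, 4.02 and 3.20 CPM in saline and 1.28, 0.561, 1.12, 1.40 and 0.946 CPM in ointment. The lowest saline library was above the highest ointment library. The means were 4.16 ± 0.754 and 1.06 ± 0.327 CPM (SD, n = 5), a log2 fold change of -1.97 (SE 0.28; edgeR adjusted p = 0.0143) that passed whichever library was left out (adjusted p up to 0.0403). Tcf7, Tcf7l1 and Tcf7l2 gave -0.04 (95% confidence interval -0.69 to 0.61), -0.50 (-1.29 to 0.28) and 0.03 (-0.55 to 0.62), and the signs of Tcf7 and Tcf7l2 depended on the libraries used. Per exon length Lef1 was the lowest of the 4 in both groups, at 0.473 CPM per kb in saline and 0.121 in ointment, against 1.63 to 2.72 and 1.67 to 2.62 for the other 3. The log2 ratio of Lef1 to Tcf7l2 was -1.75 ± 0.50 in saline and -3.74 ± 0.68 in ointment, and that of Lef1 to Tcf7 was -0.67 ± 0.79 and -2.70 ± 0.32 (exact permutation, adjusted p = 0.0149 for each). Against Tcf7l1 the difference was -1.40 with overlapping groups (exact permutation, adjusted p = 0.0476), and the 3 pairs without Lef1 had adjusted p-values of 0.13 to 0.921.

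Other genes of the pathway were read from 5 lists, of which planar cell polarity alone held genes that passed. Celsr2 and Celsr1, cadherins of that pathway, fell from 45.2 ± 19.3 to 10.3 ± 2.87 CPM (log2 fold change -2.14; edgeR adjusted p = 0.0217) and from 25.1 ± 6.26 to 11.4 ± 3.33 CPM (-1.14; adjusted p = 0.0484). Both lost the call in most fits without 1 library (4 and 2 of 10 passed), DESeq2 called 4, of which 1 was higher, and limma voom called 0 of the list. Of its 13 genes 12 were negative with a median of -0.47, and Vangl1 gave -0.56 (adjusted p = 0.0836), while Celsr3 was positive at 2.12 (adjusted p = 0.0725). Among 17 genes for Wnt secretion and co-receptors 0 passed, with 2 at an unadjusted p under 0.05 and 1 and 0 called by DESeq2 and limma voom. The smallest p there was that of Kremen2, a Dkk co-receptor (-1.80; edgeR adjusted p = 0.113). Among 20 genes of the cytoplasmic relay, such as Dishevelled and Gsk3 genes, and 16 nuclear cofactors, 0 passed by edgeR, DESeq2 or limma voom, with 2 and 3 at an unadjusted p under 0.05, and the medians were 0.02 and -0.08. Among 20 other reported Wnt targets 0 passed in edgeR or limma voom, 4 were called lower by DESeq2, and 10 had an unadjusted p under 0.05, of which 8 were lower. Over all genes 3.45% were called lower by DESeq2, 17.1% had an unadjusted p under 0.05 and 8.56% were lower at that level. The smallest p there were those of Msx2 (-2.13; edgeR adjusted p = 0.0578), Sox9 (-1.03; 0.0709), Edar (-1.90; 0.0803) and Msx1 (-1.12; 0.124), all 4 known also from follicle development.

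Markers of several cell types also differed between the groups. In a piece of tissue, fewer cells of a type and less RNA per cell cannot be told apart. Over all genes 1.67% passed in edgeR, 0.983% fell, and 17.1% had an unadjusted p under 0.05. DESeq2 and limma voom called 7.00% and 1.93% of all genes. Of 16 tested markers of hair matrix and shaft, 7 fell (3 to 10 in the fits without 1 library) and all 16 were negative (median -4.43). DESeq2 called 13 of the 16 and limma voom 3, all lower. The summed level of the 16 was 812, 420, 250, 287 and 77.9 CPM in saline libraries 1 to 5. In ointment libraries 1 to 5 it was 32.6, 53.4, 34.3, 51.4 and 62.7 CPM. Of 12 markers of follicle bulge and sebaceous gland 6 were negative and 6 positive (median -0.28). Of these 2 fell, Lhx2 (-2.37; edgeR adjusted p = 0.0175) and Tbx1 (-1.56; adjusted p = 0.0309). Lhx2 passed in 9 of the 10 fits without 1 library (adjusted p = 0.0551 without ointment library 3) and Tbx1 in 4 of 10 (adjusted p up to 0.0796). DESeq2 and limma voom called 4 and 2 of the 12, all lower. The summed level of this list was 983 to 1701 CPM in saline and 633 to 973 in ointment. Cd34, which did not pass, had the highest saline mean in it (531 CPM, and 214 in ointment). Krt15 (318 and 213) and Mgst1 (297 and 311) followed. Of 7 tested melanocyte markers 4 fell (1 to 3 without 1 library), with sums of 51.0 to 110 and 27.5 to 47.4 CPM. DESeq2 called 6 of the 7 and limma voom 2, all lower. Of 14 dermal papilla markers 9 were negative and 5 positive, and 0 passed in edgeR or limma voom. At an unadjusted p under 0.05, 3 were lower, Corin (-2.87; edgeR adjusted p = 0.0873), Hhip (-1.95; 0.0913) and Bmp4 (-1.26; 0.166), and Enpp2 was higher (0.67; 0.0979). DESeq2 called 3, of which 1 was higher. The sums overlapped at 307 to 580 and 453 to 571 CPM. Vcan (210 and 250 CPM) and Crabp1 (111 and 121) were the highest markers in them, against 2.19 and 0.298 CPM for Corin. No marker of these 4 lists was at 0 throughout a group. Saline library 5 had hair matrix and shaft markers at 77.9 CPM, near the 62.7 of ointment library 5, and bulge and sebaceous gland markers at 1315 CPM, above every ointment library. Its Rspo2, Sostdc1, Lgr6, Lef1, Wnt7b and Lgr4 levels of 0.644, 21.3, 16.4, 3.20, 14.1 and 45.7 CPM all lay above every ointment library. The same holds for every saline library, because the groups of these 6 genes did not overlap, so nothing is concluded from this library. In the ointment group, Tchh and Gata3 had the highest means of the hair matrix and shaft list, 18.2 and 14.6 CPM. How much of each gene's change goes with follicle content was not tested. Of 12 macrophage markers 4 rose (2 to 5 without 1 library), with sums of 1292 to 2350 CPM in saline and 2591 to 4271 in ointment. DESeq2 and limma voom called 6 and 4 of the 12, all higher. Of 15 interfollicular epidermis markers 2 fell and 1 rose, with sums of 18320 to 25690 and 12673 to 21445 CPM. DESeq2 and limma voom called 7 and 4 of the 15, of which 1 in each was higher. All 10 neutrophil markers were positive (median 1.82), with sums of 852 to 2729 CPM in saline and 1689 to 7824 in ointment. Of them 0 passed in edgeR or limma voom, 9 had an unadjusted p under 0.05, and DESeq2 called 7, all higher. Of 12 endothelial markers 11 were negative (median -0.43), with sums of 718 to 960 and 458 to 741 CPM. Among these 0 passed in edgeR or limma voom, 5 had an unadjusted p under 0.05, and DESeq2 called 1.

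Single markers of other cell types passed as well, each in at most 2 of the 10 fits without 1 library. Of 9 smooth muscle and pericyte markers 8 were negative, and Myh11, a smooth muscle myosin, fell by 0.83 on the log2 scale (edgeR adjusted p = 0.04, passing in 0 of those fits), with sums of 1213 to 1716 CPM in saline and 822 to 1875 in ointment. Of 9 Schwann cell markers 8 were negative, and Sox10 fell by 1.45 (adjusted p = 0.0401), with sums of 96.9 to 234 and 80.8 to 162 CPM. Of 9 adipocyte markers Lep, the gene of the hormone leptin, rose by 4.16 (adjusted p = 0.0347) and Cfd fell by 2.80 (adjusted p = 0.0384), with sums of 794 to 2295 and 1218 to 2213 CPM. Of 10 wound keratinocyte markers Hbegf, an epidermal growth factor receptor ligand, rose by 1.44 (adjusted p = 0.0379), with sums of 7928 to 17052 and 8936 to 18987 CPM. An unadjusted p under 0.05 was found for 7 smooth muscle and pericyte (6 lower), 4 Schwann cell (4 lower), 7 adipocyte (2 lower) and 4 wound keratinocyte markers (0 lower). Over all genes that share was 17.1%. DESeq2 called 3, 3, 6 and 2 in these lists, of which 0, 0, 4 and 2 were higher. With limma voom 1 was called in each, of which 0, 0, 0 and 1 were higher. Of 14 fibroblast, 11 T cell and 10 skeletal muscle markers 0 passed in edgeR or limma voom, with 3, 2 and 0 at an unadjusted p under 0.05, and DESeq2 called 0, 1 and 0. The part of these cell types in the changes of the Wnt genes was not tested.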

How the data were processed

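Gene expression was measured by RNA sequencing in 10 libraries, 5 saline and 5 ointment, mapped to their groups through titles and descriptions. RNA was purified on columns and made into libraries with a SMARTER kit, per the labels' protocols; no strand-keeping step is stated. Per the submitters' processing notes the genome was GRCm38 (mm10); aligner and counting program are not named in these sources. The authors deposited 1 table of raw counts per gene, whole numbers without normalization, which were treated as estimated counts because multiples of 4 were over-represented among the deposited values. They were already whole, so no rounding was needed, and 0 columns lacked a label. The planned test for raw counts was kept. Positions and exons came from GENCODE mouse release 21, which held 55154 of the gene IDs and lacked 267.

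Groups were compared with edgeR 4.0.16 (R 4.3.3): TMM, filterByExpr (minimum count 10, minimum total 15), robust quasi-likelihood F-test, two-sided, group as the only term, Benjamini-Hochberg adjustment over 18509 genes, threshold 0.05. Levels are mean ± SD of CPM over 5 libraries; levels between genes are per kb of merged exons. Ratios used scipy 1.17.1. The fit was tested on simulated data. Alternatives were other scalings and filters, DESeq2 1.42.0, limma 3.58.1 (voom), non-robust dispersion, a 2-fold minimum, a replicate block, division by 4, and each library left out; leaving out single-exon genes was added after seeing the data. The members and lists were chosen with earlier results of these data known. Named members were those with adjusted or unadjusted p under 0.05, the 2 smallest p and the highest level per kb of each role, and any other tested member with its fold change; of the lists, those that passed and up to 4 with the smallest p.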

Additional observations from a re-analysis of the deposited data

Results flagged for a closer look

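In 5 of 104 groups of 5 libraries, 1 library of a tested member stood apart from the other 4 by more than 0.71 of the group's range (Dixon's 95% limit), and chance gives about 1 in 20 such groups. Rspo2 measured 0.151 CPM in ointment library 5 against 0.0661 to 0.0852 in the others, a step from 4 to 8 counts. Znrf3 measured 16.2 CPM in saline library 1 against 6.30 to 7.93. Wnt4 measured 56.6 CPM in saline library 5 against 13.9 to 22.7, and Wnt3 measured 2.94 CPM in ointment library 3 against 4.45 to 4.98. Fzd1, a single-exon gene, measured 186 CPM in ointment library 1 against 0 to 19.7.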

How the results depend on the processing

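The count of members called was 4 to 7 under every alternative except DESeq2 and the replicate block, with 0 members higher in any. DESeq2 called 1499 genes and 12 members, adding Fzd2, Rnf43, Rspo1, Sost, Wif1 and Wnt11. Leaving out 1 library gave 102 (without ointment library 3) to 422 (without ointment library 4) genes and 4 to 6 members, beside 310 and 6; the fits without saline libraries 1 to 4 or ointment libraries 1, 2, 3 or 5 called over 1.5 times fewer genes, 102 to 184. Same-numbered libraries did not deviate together (correlations of -0.077 to 0.056, and no library was most alike to its own number), so the numbers are not taken to pair samples; edgeR with the replicate number as a block called 0 genes and 0 members, with 2602 and 16 at an unadjusted p under 0.05. Rspo2, Sostdc1, Lgr6 and Lef1 passed in all fits without 1 library and lost the call only with the block, where tested. Median shifts of all genes under the scalings were -0.06 to 0.01.

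Among members whose log2 fold change did not round to 0.00, signs reversed in 12, with values between -0.16 and 0.30, and the cause was not tested. Rspo4, at 0.00, took either sign (-0.24 to 0.24 without 1 library, -0.19 to 0.05 otherwise). With limma voom, Wnt10a gave 0.10, Fzd9 -1.81, Fzd5 1.53, Sfrp1 0.14 and Tcf7 0.04. With the replicate block, Wnt5a gave -0.10, Wnt10a 0.06, Fzd9 -0.48, Fzd5 0.86, Sfrp1 0.05 and Tcf7 0.05. Under library sizes alone, Tcf7l2 gave -0.01. Without 1 library, ranges were -0.37 to 0.14 for Dkk3, -0.40 to 0.28 for Fzd5, -0.23 to 0.50 for Fzd8, -0.14 to 0.62 for Fzd9, -0.41 to 0.18 for Sfrp1, -0.21 to 0.20 for Tcf7 and -0.10 to 0.19 for Tcf7l2. They were -0.25 to 0.31 for Wnt10a, -0.56 to 0.08 for Wnt10b, -0.29 to 0.10 for Wnt2b, -0.06 to 0.63 for Wnt4 and -0.45 to 0.46 for Wnt5a. Low counts limit the precision of Rspo2 in ointment and of the untested Wnt1, Wnt8a, Wnt8b, Dkk1, Dkk4 and Sost.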
